A study of Mus musculus with 5 samples.

Results

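Mast cells were examined in 5 droplet libraries of single cells from the stromal vascular fraction (SVF) of mouse inguinal white adipose tissue (iWAT), 1 library at each of 7, 14, 18, 21 and 28 d after birth. They were chosen from the deposited matrix by their counts. A cell needed at least 2 unique molecular identifiers (UMIs) of Cpa3 and at least 1 of Kit and Mcpt4 together, with at most 1 UMI of Cd3d, Cd3e and Cd3g together and none of Cd79a. Less than 2% of its UMIs could come from Col1a1, Col1a2 and Col3a1. This rule gave 275 of 46684 cells, 159 of them at 7 d and 28, 35, 49 and 4 at 14, 18, 21 and 28 d. The study followed iWAT from infancy through weaning in male C57BL6/J mice without treatment, and each library pooled 2 animals, 1 from each of 2 litters. The tissue was digested with collagenase VIII, dead cells were removed, and the lymph node was left in the tissue. Each age is 1 library, so ages were compared without any test. Age cannot be told apart from the library, and all intervals below cover counting error only.

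Mast cells are long-lived tissue cells of the innate immune system that depend on the growth factor receptor KIT. Their granules store proteases, histamine and other amines bound to a highly sulfated proteoglycan, and are released when IgE on the high-affinity receptor is crosslinked or when receptors of the Mrgpr family are engaged. After activation they also transcribe cytokines and chemokines. In rodents, the connective tissue type is marked by chymases (Cma1, Mcpt4), tryptases (Tpsb2, Tpsab1) and carboxypeptidase A3 (Cpa3), whereas the mucosal type is marked by Mcpt1 and Mcpt2.

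The label mast cell held for nearly all cells chosen. UMIs of both Cma1 and Tpsb2, which the rule did not use, were present in 155 of 159 cells at 7 d (97.5%, exact Clopper-Pearson 95% interval 93.7 to 99.3) and in 115 of 116 cells of the later ages (99.1%, 95.3 to 99.98). After thinning of each cell to 1000 UMIs, Cma1 had a UMI in 98.0% of 150 mast cells and 0.802% of 499 T-gated cells at 7 d. Mcpt1 or Mcpt2 had a UMI in 3 cells at 7 d and 1 later cell, and the basophil protease gene Mcpt8 in 12 and 4. Genes were ranked by mean level in mast cells over the highest mean in T-, macrophage- or preadipocyte-gated cells of the same libraries. Before this ratio was taken, 10 CPM (a unit explained below) was added to both levels, so the order is not that of the plain ratio. The ranking is a description in which the rule fixed the place of Cpa3 and bears on Mcpt4. The 15 highest were Cma1, Mcpt4, Cpa3, Tpsb2, Hdc, Mrgprb1, Cyp11a1, Prss34, Gata2, Mrgprb2, Serpinb1a, Slc18a2, Tpsab1, Slc6a4 and Il1rl1. The level is given throughout as CPM, the UMIs of a gene summed over the cells of a kind in a library and expressed per 1000000 UMIs summed in the same cells. Each UMI stands for 1 tagged end of a transcript, so no scaling by length was made. The mean of the 5 libraries for Cma1, a chymase that was not used in the rule, was 54667 CPM in mast cells and at most 5.14 CPM in the other gated cells. For Tpsb2 the values were 19967 and 2.04, and for Hdc, which makes histamine, 3458 and 4.54. T-gated cells thus held traces of granule transcripts at every age, with Cma1 between 1.83 and 9.92 CPM. Those cells had no UMI of Cpa3 by definition.

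At the limits on Cpa3, Kit and Mcpt4 few cells lay on either side. At 2 UMIs of Cpa3 there were 3 cells inside, and at 1 UMI 21 cells that met all other conditions lay outside. A sum of Kit and Mcpt4 of 1 was found in 3 cells inside, and 18 outside had none. Another 42 cells, of which 6 were at 7 d and the others later, met every condition except the limit on collagen, which thus left out more of the later cells. They were deep, with a median of 12840.5 UMIs against 4170 in the chosen cells, and a median of 2.45% of their UMIs came from Cpa3, Mcpt4, Cma1, Tpsb2 and Tpsab1, against 11.03% in the chosen cells. With these cells included, several protease ratios of 7 d over the later ages given below came nearer to 1. They were 0.857 for the summed proteases, 0.816 for Cma1, 0.982 for Cpa3 and 0.994 for Tpsb2, whereas Tpsab1 moved away from 1, to 6.73. Other genes named below moved as well. Fcer1a was at 0.344, Mrgprx2 at 0.387, Slc7a8 at 0.359, Slc30a2 at 0.402, Vps39 at 0.396 and Ndst2 at 0.397. Among genes higher at 7 d, Tnfrsf12a was at 8.76, Homer1 at 5.99 and Dusp2 at 6.77, and Lgals7 at 32.4 and Ccl1 at 31.4.

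Mast cells were most frequent at 7 d. They made up 1.03% of the cells there (0.876 to 1.20), 0.485% at 14 d (0.323 to 0.701), 0.554% at 18 d (0.387 to 0.770), 0.425% at 21 d (0.315 to 0.562) and 0.0525% at 28 d (0.0143 to 0.134). The later ages pooled gave 116 of 31225 cells, or 0.371% (0.307 to 0.445). The interval at 7 d lay above those of all later libraries, those of 14, 18 and 21 d overlapped each other, and that of 28 d lay below the rest. Lymphocytes, which a lymph node left in the tissue also holds, enter this denominator, so the share was also taken of cells that were neither T-gated nor B-gated, where it was 2.00, 0.824, 1.48, 0.699 and 0.114% at 7, 14, 18, 21 and 28 d. On this scale the interval at 7 d (1.70 to 2.33) overlapped that at 18 d (1.03 to 2.05). Depth was alike at the earlier ages, with a median of 4305 UMIs for each mast cell at 7 d and 4638, 4434, 3558 and 2917 at the later ages. The summed UMIs were 750008, 126381, 154951, 165052 and 13866, so that 1 UMI at 28 d stood for 72.1 CPM. Mitochondrial transcripts took 2.63, 2.54, 3.14, 5.11 and 7.28% of them, and their part in the comparisons was not tested. Of the barcodes, 243 occurred in more than 1 library, 3 mast cells had one of them, and in no case were both cells mast cells.

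**Figure D1:**
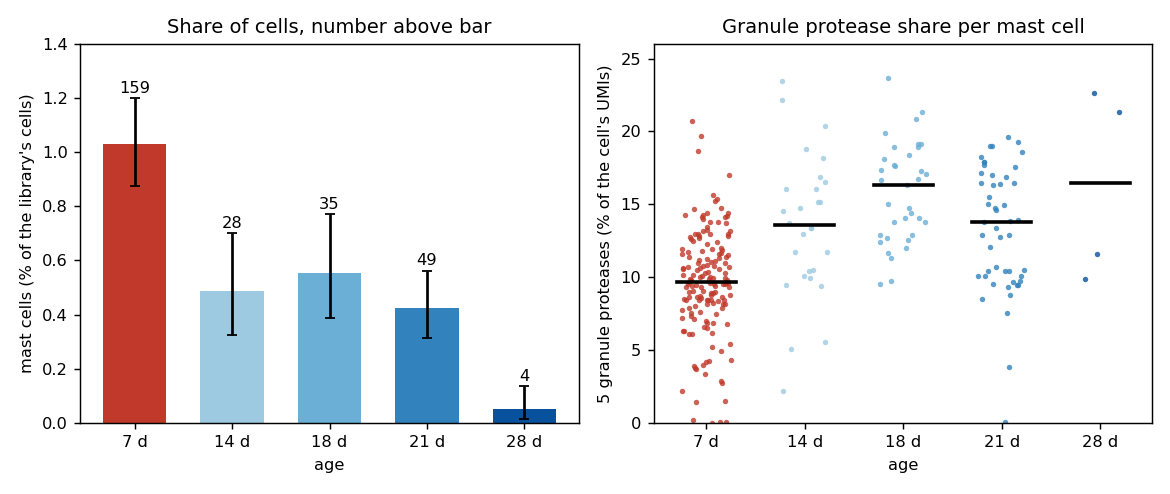
Left, mast cells as a percentage of all cells of each library, with exact 95% intervals as bars and the number of cells above them. Right, the percentage of UMIs from Cpa3, Mcpt4, Cma1, Tpsb2 and Tpsab1 in each mast cell (1 point a cell), with the median of the library as a line, which is 9.64% at 7 d and between 13.6 and 16.5% at the later ages. Cpa3 and Mcpt4 were used to choose the cells.

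Some cells carried transcripts of another cell type in addition. At least 3 UMIs of a list of 10 macrophage, dendritic, neutrophil, endothelial, mural, T or B cell markers, or of the granulocyte precursor genes Prtn3, Mpo and Elane, were present in 28, 4, 7, 7 and 1 cells at 7, 14, 18, 21 and 28 d. Of the 9 deepest mast cells, with 11043 to 38255 UMIs, 8 came from the 7 d library. The deepest, with 38255 UMIs, had 413 UMIs of Prtn3, Mpo and Elane and 0.00523% of its UMIs from granule proteases, so its markers went against the label. The next had 489 UMIs of endothelial and 87 of mural markers, another had 730 of mural markers, 3 had 67 to 145 of macrophage markers and 2 had 31 and 62 of dendritic cell markers. The summed level of the 10 macrophage markers was 640.0, 31.7, 6.45, 24.2 and 0 CPM at 7, 14, 18, 21 and 28 d, with C1qb the most abundant. The 10 mural markers, led by Acta2, reached 1175, 39.6, 6.45, 18.2 and 0 CPM. For the endothelial markers, led by Fabp4, the sums were 813, 55.4, 32.3, 109 and 144 CPM. The summed ratios of the lists below are therefore also given for the 228 cells without such markers (131, 24, 28, 42 and 3 in order of age), a selection made after the data had been seen. The part of the remaining free RNA in the results was not tested.

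Of the 3462 genes with at least 50 UMIs in mast cells, 343 (9.91%) were higher at 7 d, which means that their CPM reached 2 times the pooled later value or more and exceeded each of the 4 later libraries. Lower by the same measure, at most 0.5 times and below each later library, were 169 (4.88%). In the cells without other cells' markers, 2516 genes could be compared, of which 234 (9.3%) were higher and 81 (3.22%) lower. The median log2 ratio of all genes compared was -0.09. The library of 28 d, with 4 cells, decided many of the lower calls, since 269 genes were lower without it. The limit of 50 UMIs was taken over all mast cells, in which 7 d held 750008 UMIs and the later ages pooled 460250. A gene could thus be compared through its 7 d counts alone, which favours genes that are high at 7 d. This holds for the counts of higher and lower genes here and in the lists below. These calls are descriptions of the libraries.

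The granule proteases had the highest sum of the lists at every age and were lowest at 7 d. Their summed level over 20 genes was 88434 CPM at 7 d and 145101, 158457, 138702 and 179576 CPM at 14, 18, 21 and 28 d, a ratio of 0.596 (0.590 to 0.603). This sum holds Cpa3 and Mcpt4, which the rule used to choose the cells, so it is given only as a description. Without cells with other markers the ratio was 0.744. For Cma1, Tpsb2 and Tpsab1, which the rule did not use, the median share of a cell's UMIs was 5.30% at 7 d and 7.496, 7.81, 7.61 and 8.74% later, and 136 of 159 cells at 7 d lay below the median of the later cells (7.69%).

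The 4 major proteases did not differ in equal measure. Cma1 (chr14:55941451-55944675, minus strand, GRCm38) had 33045 CPM at 7 d and 56456, 56140.3, 61489.7 and 66205 CPM at the later ages, a ratio of 0.565 (0.556 to 0.575). Mcpt4 (chr14:56059629-56062313, minus strand), the second chymase of the same cluster, had 19928 CPM against 36018, 48047, 37200.4 and 49401 CPM, and its ratio was 0.487 (0.477 to 0.498), which was 0.620 and no longer called without cells with other markers. Both genes were below every later library at 7 d. Cpa3 (chr3:20215620-20242181, minus strand), which trims peptides after the chymases have cut them, had 17006 CPM against 25241, 28151, 23132 and 28775 CPM, a ratio of 0.665. The tryptase Tpsb2 (chr17:25366305-25369098, plus strand) had 13393 CPM against 23666, 22381, 13135 and 27261 CPM. Its level at 21 d was as low as that at 7 d, and its ratio of 0.685 became 0.916 without cells with other markers, so no clear difference was left for Tpsb2. Cpa3, Mcpt4 and Kit were used to choose the cells, and their levels and calls are given only as a description.

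Tpsab1 (chr17:25343245-25345562, minus strand), a tryptase gene that lies beside Tpsb2, went the other way. It had 1435 CPM at 7 d and 309, 426 and 145 CPM at 14, 18 and 21 d. At 28 d it had 1298 CPM, a value from 4 cells, so the libraries of 7 and 28 d were close to each other and those of 14 to 21 d were low. The ratio was 4.49 (3.78 to 5.37), 9.18 without cells with other markers and 2.63 with equal weight for the later libraries. A UMI of Tpsab1 was found in 116 of 159 cells at 7 d and in 37 of 116 later cells. After thinning of each cell to 1000 UMIs the shares were 58.0% (49.7 to 66.0) of 150 cells and 17.5% (11.1 to 25.8) of 114 cells, against 0.200% of 499 T-gated cells at 7 d. The C57BL/6 strain is known to carry a splice site mutation that prevents the protein of this gene, and the counts speak only of its transcript. The tryptase genes are similar in sequence and reads could be split between them. Tpsg1, a membrane-anchored tryptase, was in contrast lower, with 180.0 CPM against 372, 645, 376 and 216 CPM (ratio 0.391, 0.313 to 0.487).

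Among the 20 genes of the list, 14 could be compared, 5 were called higher and 3 lower, Mcpt4 among them, against 9.91 and 4.88% of all genes, and without cells with other markers 3 and 1 of 13, against 9.3 and 3.22%. All 57 UMIs of Gzmb and 53.0% of those of Ctsg came from 1 cell, and Ctsg, a neutral protease of granules, was still called without cells with other markers (ratio 3.92, against 6.12 with them). Ctsd, a lysosomal protease, was lower (547 CPM against 1072 to 1370.3, ratio 0.485), but not without cells with other markers (0.590). The level of Prss34, a protease gene shared with basophils, was 793 CPM at 7 d and 886, 465, 1181 and 4039 CPM later, and its ratio of 0.839 turned to 1.11 without cells with other markers. With equal weight for the later libraries the ratio of Prss34 was 0.483. The cystatin gene Cst3 was called higher (ratio 2.12) and lost this without them (0.986).

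**Figure D2:**
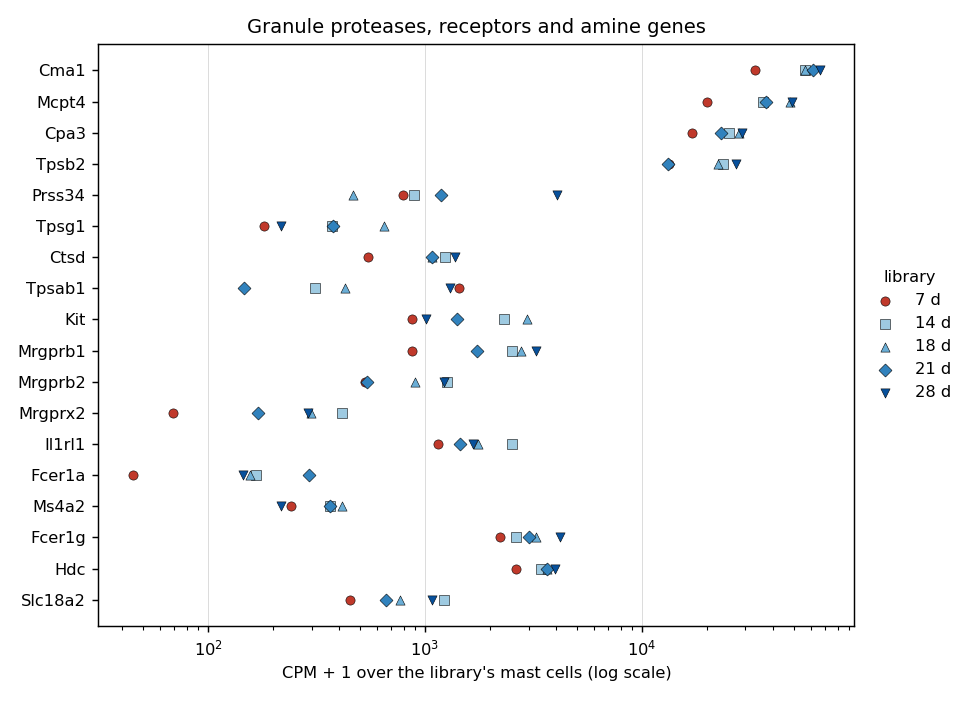
Level of 18 genes of granules, receptors and amines in the mast cells of each library, as CPM + 1 on a log scale, with 1 symbol for each age. The 7 d library is lowest for Cma1, Mcpt4, Cpa3, Kit, Mrgprb1, Mrgprx2 and Fcer1a and highest for Tpsab1 (1435 CPM).

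Of the genes looked up in the RefSeq promoter table, 3 proteases that were below every later library at 7 d are shown by the 250 bases before their start sites. The bases in capitals are matches to GATAA, the core that GATA factors such as GATA2 bind, on either strand (TTATC on the other). Of 6 genes looked up, 4 were matched, and Hdc, the other one, held no GATAA. The regions lie on the minus strand of GRCm38.p6 at chr3:20242182-20242431 (Cpa3), chr14:55944676-55944925 (Cma1) and chr14:56062311-56062560 (Mcpt4). The start sites used were not always the ends of the genes as given here. The Mcpt4 region overlaps the end of the gene at 56062313. For Hdc the region (chr2:126618679-126618928) lies inside the gene, which ends at 126619299.
Cpa3: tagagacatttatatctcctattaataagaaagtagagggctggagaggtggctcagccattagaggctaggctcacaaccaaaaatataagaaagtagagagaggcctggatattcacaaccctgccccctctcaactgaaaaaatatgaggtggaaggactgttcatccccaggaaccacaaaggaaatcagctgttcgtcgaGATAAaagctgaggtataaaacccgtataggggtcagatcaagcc
Cma1: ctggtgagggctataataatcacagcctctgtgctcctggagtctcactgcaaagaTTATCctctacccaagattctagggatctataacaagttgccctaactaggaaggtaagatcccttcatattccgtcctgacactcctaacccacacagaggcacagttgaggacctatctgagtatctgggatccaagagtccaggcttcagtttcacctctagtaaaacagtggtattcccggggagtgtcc
Mcpt4: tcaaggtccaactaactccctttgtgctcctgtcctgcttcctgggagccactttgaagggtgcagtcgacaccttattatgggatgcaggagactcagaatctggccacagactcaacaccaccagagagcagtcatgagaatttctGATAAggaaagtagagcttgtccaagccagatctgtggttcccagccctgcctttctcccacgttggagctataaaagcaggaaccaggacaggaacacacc
Each held 1 match, at -45, -194 and -102 from the start site. GATAA was present on either strand in 22.6% of 32851 promoter regions of this length. CATGTG, searched in the same way as a letter string that MITF binds (CACATG on the other strand), was in none of the 4 and in 12.3% of all. A match of letters is a description of the window and not a site.

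Receptor genes had a lower summed level at 7 d, and few of them were called. The sum over 34 genes was 9787 CPM at 7 d and 16885, 17160.3, 13541 and 16804 CPM later (ratio 0.620, 0.6005 to 0.641, and 0.738 without cells with other markers). Of 18 that could be compared, none was called higher and 4 lower (Kit, Fcer1a, Mrgprb1 and Cd63), against 4.88% of all genes lower, and of 17 without those cells 2 were called higher and 2 lower (Fcer1a and Mrgprb1), against 9.3 and 3.22% of all genes. Kit (chr5:75574916-75656722, plus strand), the receptor for stem cell factor, had 875 CPM against 2318, 2936, 1406 and 1009.7 CPM. This gave a ratio of 0.405 (0.366 to 0.447), with the 28 d library close to 7 d. Without cells with other markers the ratio was 0.491, but 7 d was not below every later library and the call was lost. Mrgprb1 (chr7:48444113-48456342, minus strand), a member of the family of receptors for basic peptides, had 868 CPM against 2516, 2775, 1727 and 3245 CPM, a ratio of 0.371 (0.336 to 0.409) that was 0.449 without cells with other markers. Its neighbour Mrgprx2, which was not in the list, had 68.0 CPM against 411, 297, 169.6 and 288 CPM, while Mrgprb2, the receptor for many drugs and peptides, had 528 CPM against 1266, 897, 539 and 1226 CPM and was not called. These genes are similar in sequence and reads could be split between them.

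The chains of the high-affinity IgE receptor differed from each other. Fcer1a, which binds IgE, had 44.0 CPM at 7 d and 166, 155, 291 and 144 CPM later, a ratio of 0.213 (0.139 to 0.3198), and a UMI was found in 22 of 159 and 31 of 116 cells. After thinning the shares were 4.67% (1.90 to 9.38) and 10.5% (5.56 to 17.7), so their intervals overlapped. The signalling chains Ms4a2 (241 CPM against 364, 413, 364 and 216) and Fcer1g (2223 CPM against 2627 to 4183) had ratios of 0.642 and 0.735 and were not called. Cd63, a protein of the granule membrane, was called lower (1168 CPM against 2358, 2362, 2478 and 3678, ratio 0.478), but not without cells with other markers (0.539). Il1rl1, the IL-33 receptor, was at 1141 CPM against 2508, 1762, 1454 and 1659. Adora3 and Csf2rb had ratios of 1.75 and 1.84, and both were called higher without cells with other markers (2.13 and 2.42).

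The summed level of amine genes was lower at 7 d, with no member called lower. The 10 genes for histamine and serotonin summed to 4405 CPM at 7 d and 6393, 6118, 5356 and 7428 CPM later (ratio 0.739, and 0.891 without cells with other markers). Hdc had 2639 CPM at 7 d and 3418, 3633, 3635 and 3967 CPM later, and Slc18a2, which loads amines into granules, 452 CPM and 1226, 768, 660.4 and 1082 CPM. Neither reached the fold for a call. Gch1, which makes the cofactor of serotonin synthesis, was the one gene of the 8 compared that was called (1 of 7 without cells with other markers, near the 9.91 and 9.3% of all genes), and it was higher (209 CPM against 31.7, 25.8, 6.06 and 0). Srgn, the core protein of the granule proteoglycan, had 7545 CPM at 7 d and 6085, 5937, 6762 and 6130.1 CPM later, a ratio of 1.20 (1.15 to 1.26).

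Of the enzymes that build and sulfate the chains on this core, 3 were called lower. Ndst2, which starts heparin sulfation, had 177 CPM at 7 d and 870.4, 645, 599.8 and 216 CPM later, a ratio of 0.262 (0.212 to 0.321). Its thinned share of cells was 15.3% (9.98 to 22.1) at 7 d and 48.2% (38.8 to 57.8) later. Hs2st1 (105 CPM against 388, 355, 267 and 361) and Hs6st2 (247 CPM against 554, 600.2, 430.2 and 433), which sulfate at other positions, had ratios of 0.317 and 0.473. Of the 12 genes compared in this list none was called higher and 3 lower, against 4.88% of all genes lower. The median log2 ratio was -0.68, whereas the summed level, which Srgn dominates, had a ratio of 1.02 (0.980 to 1.06). This interval holds 1, so the sum did not follow the median. Without cells with other markers the summed ratio was 1.197, and Hs2st1 alone of the 10 left was called (3.22% of all genes). The ratio of Ndst2 was 0.304 there, but its 7 d level was not below every later library.

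Cytokine and chemokine genes were higher at 7 d. Their summed level over 32 genes was 8405 CPM at 7 d and 2809, 2020.0, 3369 and 3389.6 CPM later, a ratio of 3.04 (2.87 to 3.24), and 2.79 without cells with other markers. Of 17 that could be compared, 13 were called higher and none lower, against 9.91% of all genes higher. Without those cells 9 of 12 were called higher (9.3% of all). The median log2 ratio of the 17 was 2.57 against -0.09 over all genes. Members such as Cxcl2, with no later UMI, were compared through their 7 d counts alone, so these counts and this median favour 7 d. Il13 (chr11:53631324-53634702, minus strand), a type 2 cytokine, had 1033 CPM at 7 d and 95.0, 45.2, 90.9 and 0 CPM at 14, 18, 21 and 28 d. Its ratio was 14.0 (9.92 to 20.3), and 20.8 without cells with other markers. A UMI of Il13 was present in 95 of 159 cells at 7 d and in 7 of 28, 6 of 35, 8 of 49 and 0 of 4 cells later, and the exact upper limit for a share of cells with a UMI is 60.2% for 0 of 4. After thinning the shares were 41.3% (33.4 to 49.7) and 3.51% (0.964 to 8.74), and no UMI was found in 499 T-gated cells at 7 d.

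Other cytokines followed to a lesser degree. Il4, the companion of Il13, had 739 CPM at 7 d and 435, 239, 182 and 288 CPM later (ratio 2.70, 2.22 to 3.30). Tnf, an inflammatory cytokine that mast cells also store, had 748 CPM and 459, 381, 133 and 0 CPM (2.48, 2.05 to 3.00). Csf1, a growth factor of macrophages, had 311 CPM and 23.7, 45.2, 84.8 and 0 CPM (5.96, 3.91 to 9.49). In all 3 the 7 d library was above every later library.

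Chemokines for monocytes and T cells were split. Ccl7 had 1123 CPM at 7 d and 253, 161, 169.6 and 0 CPM later, a ratio of 6.08, and Ccl4 had 459 CPM and 7.91, 71.0, 60.6 and 0 CPM, a ratio of 9.60. Ccl1 had 164 CPM against 0, 6.45, 18.2 and 0 CPM, but only 34 cells at 7 d and 2 later cells had a UMI of it. Ccl2, the most abundant of the list, had 1735 CPM against 1099.8, 665, 2133 and 2885 CPM and did not stand apart. The 769 UMIs of Cxcl2 at 7 d, against none later (at least 157-fold higher by the limit of 3 counts over the later cells), came from 24 cells, 39.7% of them from 1 cell, and 13 UMIs were left without cells with other markers. Cxcl10 likewise had 63.3% of its UMIs in 1 cell.

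Immediate-early genes, which respond within minutes to many stimuli including tissue digestion, were partly higher. The summed level of 23 genes was 31433 CPM at 7 d and 26309, 20471, 24683 and 10746 CPM later (ratio 1.35, 1.32 to 1.38, and 1.503 without cells with other markers). All 23 could be compared, and 13 were called higher and none lower, and 12 of 21 without those cells, against 9.91 and 9.3% of all genes higher. Ier3 had 1851 CPM at 7 d and 222, 155, 218 and 361 CPM later (ratio 9.16, 7.42 to 11.4). Egr3 had 1024 CPM against 427, 96.8, 188 and 0 (4.71), Nr4a1 1445 CPM against 657, 309.8, 479 and 72.1 (3.15), and Junb 5544 CPM against 2556, 1859, 3102 and 433 (2.26). Other members did not follow. Fos had 1416 CPM at 7 d and 3664, 2885, 2605 and 505 CPM later (ratio 0.484), Egr1 2420.0 CPM and 5183, 2459, 2333 and 505 CPM (0.780), and Fosb 1336 CPM and 2271, 1446, 1884 and 649 CPM (0.740). For these 3 the 28 d library was the lowest.

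Genes of the NF-kB response were higher at 7 d. The 16 genes summed to 6428 CPM at 7 d and 2437, 1904, 2920.3 and 1154 CPM later, a ratio of 2.69 (2.52 to 2.87), and 7 of the 12 that could be compared were called higher and none lower, against 9.91% of all genes higher. Without cells with other markers the ratio was 2.91 and 7 of 10 were called, against 9.3%. Nfkbia, the inhibitor that NF-kB induces, had 1955 CPM against 696, 639, 812 and 361 CPM (2.76, 2.45 to 3.12). Rel, a subunit of NF-kB, had 591 CPM against 79.1, 109.7, 66.6 and 72.1 CPM (6.97), and Gadd45b 1076 CPM against 31.7, 38.7, 279 and 0 CPM (8.84). Tnfaip3, another inhibitor, did not follow (224 CPM against 261, 323, 370 and 0, ratio 0.716). Among heat shock genes 1 of 11 was called higher, near the 9.91% of all genes, Dnaja1 (1827 CPM against 522, 736, 1054 and 721). Also, 1 was called lower, against 4.88% of all genes, Hspa1b (253 CPM against 309, 407, 782 and 865). Their summed ratio was 1.54, and without cells with other markers it was 1.63, with 2 of 11 called higher and none lower, against 9.3 and 3.22% of all genes.

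Transcription factors of the lineage did not move as one. Gata2 had 953 CPM at 7 d and 1812, 942, 1363 and 1370.3 CPM later and was not called, and Mitf had 116 CPM against 269, 226, 158 and 72.1. Tal1 (69.3 CPM against 222, 239, 139 and 144) and Ikzf1 (117 CPM against 396, 387, 182 and 144) were called lower, with ratios of 0.355 and 0.380, and Tal1 was not without cells with other markers (0.5004). Hes1, a target of Notch, had 2433 CPM against 411, 316, 412 and 938 CPM, a ratio of 6.15 (5.28 to 7.21), and Cebpb 285 CPM against 55.4, 90.4, 133 and 0. In all, 5 of 14 were called higher and 2 lower, against 9.91 and 4.88% of all genes, and without cells with other markers 2 and 1 of 12, near the 9.3 and 3.22% of all genes. The median log2 ratio was -0.46 and the summed ratio 1.17 (1.31 without those cells), so that they differed in sign.

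Among called genes with no more than 20% of their UMIs in 1 cell, the 12 with the largest ratio were Tnfrsf12a, Lgals7, Ccl1, Tfrc, Ifrd1, Il13, Cdkn1a, Marcksl1, Dusp2, Gch1, Maff and Homer1, with ratios from 10.1 to 25.4. Ifrd1, a stress-responsive regulator of transcription, had 1365 CPM at 7 d and 79.1, 71.0, 139 and 0 CPM later (14.3, 10.6 to 19.8). Cdkn1a, the cell cycle inhibitor p21, had 772 CPM against 63.3, 64.5, 60.6 and 72.1 CPM (12.3, 8.44 to 18.5), and after thinning, which left UMIs of it in 2 later cells, the ratio was 44.8. Tnfrsf12a, the receptor of TWEAK, had 165 CPM against 0, 12.9, 6.06 and 0 CPM, a ratio of 25.4 (8.48 to 125) that was 50.5 without the 18 d library and 8.36 after thinning. Tfrc, the transferrin receptor through which cells take up iron, had 127 CPM at 7 d and 7.91, 6.45, 6.06 and 72.1 CPM later, the last of them 1 UMI, and its ratio of 14.6 was 5.47 with equal weight for the later libraries and 9.12 after thinning. For Marcksl1, an actin-binding protein, the values were 367 CPM against 39.6, 25.8, 36.4 and 0 CPM. Behind the ratios of Tnfrsf12a, Lgals7, Ccl1, Maff and Homer1 stood 2 to 4 later UMIs. Ccl1 was at 18.9, at 48.4 without 21 d, and at least 5.57-fold higher after thinning, when no later UMI was left. Lgals7 was at 19.02, at 12.6 without 18 d, at 12.2 without 21 d, and at least 9.20-fold higher without 14 d and 3.55-fold after thinning, both with no later UMI, against a limit of 3 counts over the later cells. Maff was at 10.4, at 6.92 without 18 d, at 20.1 without 21 d and at 2.28 after thinning. Homer1 was at 10.1 and at 6.49 without 21 d, and Dusp2 at 10.8 and at 6.84 after thinning. For each of the 12, the 7 d level was above every later library by the rule.

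Among the 12 with the smallest ratio were Ighm, Lars2, Tspan4, Fcer1a, Zkscan3, Slc7a8, Mrgprx2, Slc30a2, Vps39, Ndst2 and Atp2a3, with ratios from 0.132 to 0.271. Slc7a8, a carrier of neutral amino acids, had 42.7 CPM at 7 d and 174, 213, 145 and 505 CPM later, and Slc30a2, a zinc carrier of vesicles, 40.0 CPM and 182, 174, 115 and 144 CPM. Atp2a3, a calcium pump of the endoplasmic reticulum, had 50.7 CPM and 253, 219, 96.9 and 288 CPM, and after thinning the ratios of Slc30a2 and Atp2a3 were nearer to 1 (0.434 and 0.475, against 0.259 and 0.271). For Vps39, which tethers endosomes to lysosomes, the values were 30.7 CPM at 7 d and 150.3, 136, 66.6 and 216 CPM later. The first gene, Ighm, belongs to B cells. The 10 B cell markers summed to 74.7, 150.3, 226, 309 and 288 CPM in mast cells from 7 to 28 d, with Ighm the most abundant and Cd79a at 0 by the rule. Lars2 has a stretch that collects reads of ribosomal RNA. It had 81.3 CPM against 498, 484, 569.5 and 361 CPM in mast cells, and Gm42418, which overlaps ribosomal RNA, 2173 CPM against 14432, 13830.2, 12093 and 8943 CPM. Both were also lower at 7 d than at 14, 18 and 21 d in T-, macrophage- and preadipocyte-gated cells, and at 28 d the preadipocyte-gated cells were below 7 d for both, at 2525 against 4197 CPM for Gm42418 and 147 against 159 CPM for Lars2.

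**Figure D3:**
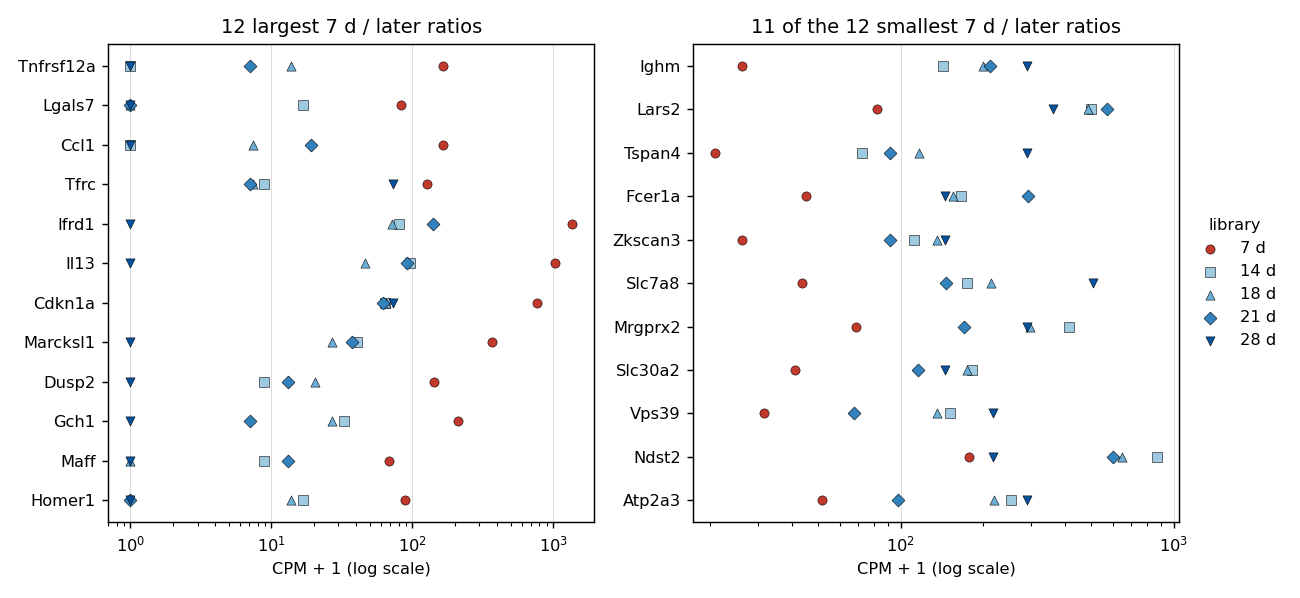
Level of the 12 called genes with the largest (left) and 11 of the 12 with the smallest (right) ratio of 7 d over the later ages, as CPM + 1 on a log scale with 1 symbol for each library. The 7 d library stands to the right of all others on the left panel, at 1365 CPM for Ifrd1 and 1033 CPM for Il13, and to the left of them on the right panel.

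The other lists showed smaller or less certain differences. The 30 genes of KIT and IgE receptor signalling had a summed ratio of 0.806 (0.759 to 0.856). Of these, 2 of 22 were called higher, near the 9.91% of all genes, and none lower, against 4.88%. Without cells with other markers the ratio was 0.893, with 1 of 17 called higher, against 9.3% of all genes. Among the genes called in all mast cells was Cish, a feedback inhibitor that STAT5 induces (232 CPM against 79.1, 38.7, 54.5 and 0). Genes of exocytosis had a ratio of 0.856 with 1 of 11 called lower, Scamp1, and 0.961 with 2 of 7 without cells with other markers, against 4.88 and 3.22% of all genes lower. Those of eicosanoids had a ratio of 0.807 (0.778 without these cells) with 1 of 4 called higher in both, against 9.91 and 9.3% of all genes, Alox5ap (111 CPM against 47.5, 19.4, 36.4 and 0). Glycolysis genes had a ratio of 1.41, and 1.30 without these cells, and none of 13, or of 9 without these cells, was called. Of all genes 9.91 and 4.88% were called higher and lower, and 9.3 and 3.22% without these cells. Fetal and perinatal growth genes were near the limit of detection, with a sum of 300.0 CPM at 7 d and 216 to 406 CPM later (ratio 0.852, and 0.755 without these cells). Of the 18, 2 could be compared and neither was called, against 9.91 and 4.88% of all genes higher and lower. Without these cells the 1 gene left, Igf1r, was called lower, against 3.22% of all genes, and 1 gene decides nothing about the list. Antigen presentation, interferon response and lipid handling had ratios of 1.20, 1.33 and 1.99, which became 0.997, 0.568 and 0.837 without cells with other markers. The calls in these lists were 3 of 8, 2 of 3 and 3 of 7 higher with them, and 0 of 5, 0 of 1 and 1 of 3 without them, against 9.91 and 9.3% of all genes. Called lower were 1 of 8, 0 of 3 and 0 of 7 with them and 1 of 5, 1 of 1 and 0 of 3 without them, against 4.88 and 3.22%, so the directions of these 3 lists depended on those cells. Of the UMIs of the antigen presentation gene Cd74 72.3%, of the interferon-induced Ifitm3 47.9% and of the lipid carrier Fabp4 77.2% came from 1 cell each.

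Cycling cells were rare. At least 3 UMIs of 11 mitotic genes were found in 4 of 159 cells at 7 d (2.52%, 0.690 to 6.32), in 0 of 28 at 14 d, 3 of 35 at 18 d, 1 of 49 at 21 d and 0 of 4 at 28 d. The summed level of 20 cycling genes was 1347, 696, 3195, 885 and 721 CPM at 7, 14, 18, 21 and 28 d. At 18 d, 396 of 495 UMIs came from 3 cells with more than 10 such UMIs each. Cells of this kind numbered 10 at 7 d, with 576 of 1010 UMIs, and 3 at 21 d, with 68 of 146. The ratio of 7 d over the later ages was 0.839 and became 1.68 without the 18 d library and 0.865 without cells with other markers. None of the 7 genes compared was called, against 9.91 and 4.88% of all genes higher and lower.

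**Figure D4:**
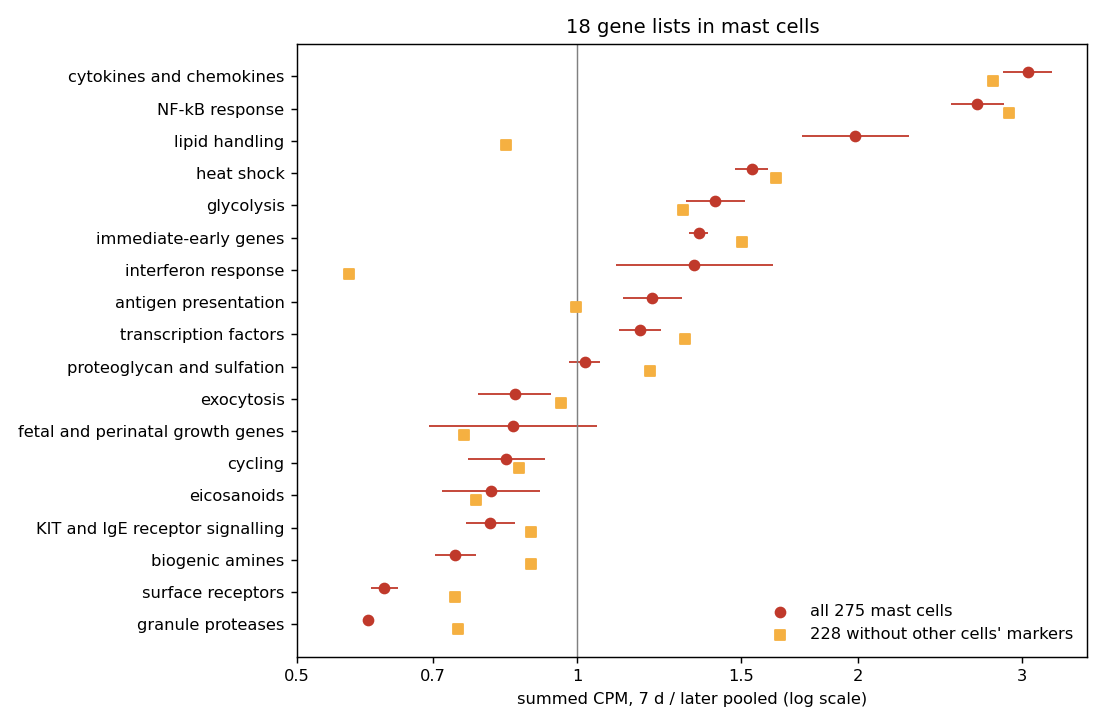
Ratio of the summed CPM at 7 d over the later ages pooled for 18 gene lists, on a log axis, in all 275 mast cells (circles, with exact 95% counting intervals) and in the 228 without other cells' markers (squares). Cytokines (3.04) and the NF-kB response (2.69) are to the right in both, granule proteases (0.596) and receptors (0.620) to the left, and the interferon response and lipid handling cross 1. The protease sum holds Cpa3 and Mcpt4 and the receptor sum Kit, which were used to choose the cells.

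The same lists were then read in other cells of the same libraries. T-gated cells (16549 cells with at least 2 UMIs of the Cd3 genes), macrophage-gated cells (741 with at least 3 of Cd68, Adgre1, Mrc1 and Csf1r) and preadipocyte-gated cells (10135 with Pdgfra, a collagen share of at least 2% and no Ptprc) had no UMI of Cpa3. The libraries are shared, so the values stand side by side and are not independent. For the NF-kB response the ratio of 7 d over the later ages was 2.69 in mast cells and 2.70, 3.90 and 4.27 in T-, macrophage- and preadipocyte-gated cells. For immediate-early genes it was 1.35 and 1.04, 1.34 and 1.44, and for cytokines 3.04 and 1.26, 7.35 and 5.57. The NF-kB transcripts were thus higher at 7 d in all 4 kinds of cell, and the part of tissue preparation in this was not tested. Erythroid transcripts, led by Hbb-bs, were also higher at 7 d in all 4 (340.0 CPM against 0 to 66.6 CPM in mast cells), while Alas2 and Slc4a1 were at 0 in mast cells.

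Single genes showed both kinds of pattern. Ifrd1 was at 467, 1893 and 806 CPM at 7 d in T-, macrophage- and preadipocyte-gated cells and at 61.0, 181 and 178 CPM later, and Cdkn1a at 51.6, 688 and 105 CPM and 11.8, 139 and 52.6 CPM. Il13 was at 4.32 CPM in T-gated cells at 7 d and 2.41 CPM later, at 0 in macrophage-gated cells at all ages, and at 0.0669 and 0.0336 CPM in preadipocyte-gated cells. Ccl1 likewise reached 3.58 CPM in T-gated cells at 7 d. Tpsab1 was at 0.696, 1.48 and 0.435 CPM at 7 d in the 3 gates. At 7 d, Il13, Ccl1 and Tpsab1 in mast cells (1033, 164 and 1435 CPM) were above all 3 other gates, while the later values of Ccl1 in mast cells, at 0 to 18.2 CPM, were not clear of T-gated cells, which reached 3.16 CPM in a later library.

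**Figure D5:**
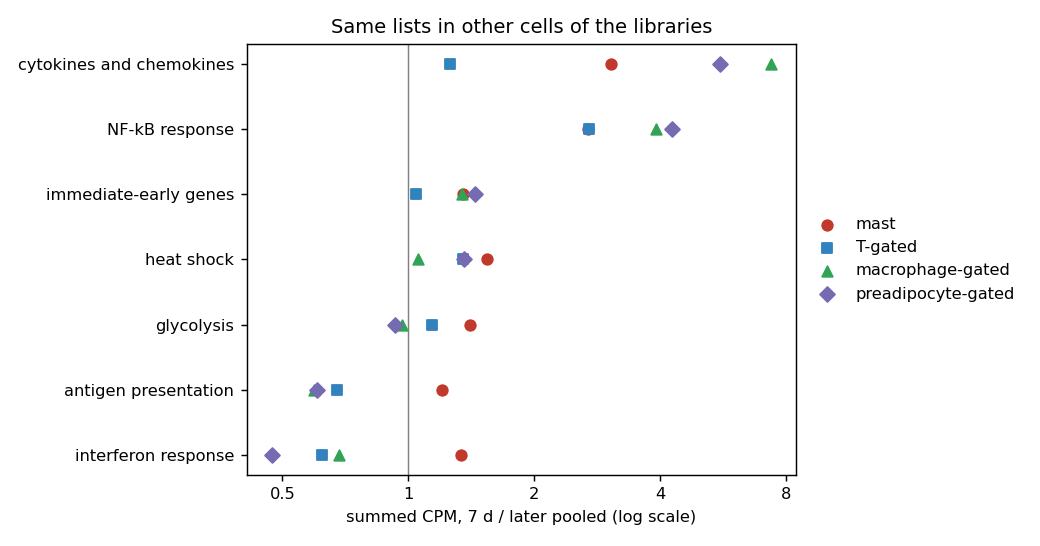
Ratio of the summed CPM at 7 d over the later ages pooled for 7 lists in mast, T-gated, macrophage-gated and preadipocyte-gated cells of the same 5 libraries, on a log axis. The NF-kB response lies between 2.69 and 4.27 in all 4, and antigen presentation and the interferon response are above 1 in mast cells alone, where they rest on few mixed cells.

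Detection in single cells, which follows abundance, was also compared at equal depth. In thinned cells at 7 d, Cma1 had a UMI in 98.0% and Tpsb2 in 97.3% of 150 cells, whereas Ifrd1 had one in 64.7% (56.5 to 72.3), Il4 in 55.3% (47.0 to 63.4), Cdkn1a in 40.0% (32.1 to 48.3) and Tnf in 39.3% (31.5 to 47.6). In 114 later cells the same shares were 99.1 and 99.1% for the proteases and 7.89% (3.67 to 14.5), 16.7% (10.3 to 24.8), 1.75% (0.213 to 6.19) and 25.4% (17.7 to 34.4). Ifrd1 and Cdkn1a were named for their large ratios in these same cells, and Il4 and Tnf after their values were seen. Their shares therefore describe the same differences again, and the cells of a library are not replicates. The share for Tnf at 14 d alone was 40.7% (22.4 to 61.2), as high as at 7 d. In T-gated cells at 7 d, Ifrd1 had a UMI in 28.9% of thinned cells and Cdkn1a in 1.603%, and Il4 and Tnf in 0.200 and 0.401%. Kit had a UMI in 62.7% (54.4 to 70.4) of the thinned cells at 7 d and 78.9% (70.3 to 86.0) later, and Mrgprb1 in 54.7% (46.3 to 62.8) and 86.0% (78.2 to 91.8). For Kit the share was 88.9% at 14 d and 94.3% at 18 d. At 21 d it was 64.6% (49.5 to 77.8), close to 7 d, and at 28 d 50% of 4 cells. Without thinning, the shares for Kit were 89.9 and 92.2%, and for Mrgprb1 82.4 and 94.0%. Thinning left out 9 cells at 7 d and 2 later cells with fewer than 1000 UMIs.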

How the data were processed

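Per the study's methods, the authors aligned the reads to the mouse genome with Cell Ranger (3.1.0 in the submitters' processing notes, which name GRCm38 and mm10), removed cells above 20% mitochondrial reads, under 200 or over 6000 genes, and doublets called by Scrublet, and deposited counts, the whole-number UMIs of 31053 genes in 46684 cells, not normalized. Cells were taken to libraries by the labels in the deposited table. From these counts the mast cell rule was applied, UMIs were summed for each library, and CPM, ratios and exact conditional intervals (95%) were computed with Python 3.11.15, numpy 2.4.6, scipy 1.17.1 and pandas 2.3.3. Figures were drawn with matplotlib 3.10.9. The later ages were pooled by sums of UMIs. No model was fitted, since each age had 1 library. Thinning drew 1000 UMIs from each cell. Named were the main proteases, the 12 largest and 12 smallest ratios among called genes with at most 20% of UMIs in 1 cell, the extreme and most abundant members of each list, and the 15 leading identity genes, and Ms4a2, Fcer1g, Il4, Tnf, Csf1, Ccl4, Ccl7, Egr3, Nr4a1, Junb, Nfkbia and Gm42418 were named after their values were seen. Of the 12 smallest ratios, 1 gene is not reported here. The members and the lists were chosen with earlier results of these data known. The scripts were tested on simulated data. Library totals were 128841585, 50432106, 42690542, 126849628 and 60812002 UMIs from 7 to 28 d.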

Additional observations from a re-analysis of the deposited data

Results flagged for a closer look

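In 2 genes every later library lay on one side of 7 d in mast cells and on the other side in preadipocyte-gated cells. Kit was at 1.67 CPM at 7 d in preadipocyte-gated cells and at 0.0765 to 0.670 CPM in the later libraries, whereas in mast cells it was at 875 CPM at 7 d and 1009.7 to 2936 CPM later. Cma1 was at 4.35 CPM at 7 d in preadipocyte-gated cells and at 0.995 to 3.18 CPM later, against 33045 CPM at 7 d and 56140.3 to 66205 CPM later in mast cells. The levels of both genes in preadipocyte-gated cells were traces, of the size of Cma1 in T-gated cells (1.83 to 9.92 CPM), and their source was not tested. The difference between the kinds of cell was not tested in either gene, as each age had 1 library. Mast cells were 1.03% of the cells at 7 d and 0.0525 to 0.554% in the later libraries.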

How the results depend on the processing

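No paired analysis was possible because each age had 1 library and no test was made. Against 343 genes higher and 169 lower of 3462 compared, the counts were 118 and 22 of 738 after thinning, 574 and 350 of 6376 with at least 20 UMIs, 205 and 75 of 1780 with at least 100 UMIs, and, of the 3462, 586 and 433 at 1.5-fold and 182 and 35 at 3-fold. Lower genes numbered 95 without cells with macrophage, B cell, neutrophil or endothelial markers and 81 without the 47 cells with any of 8 marker lists, an alternative chosen after the data were seen. Leaving out 1 later library at a time gave 342 to 377 higher and 135 to 269 lower genes, the last without 28 d. The ratio of granule proteases (0.596) was 0.630 with at least 5 UMIs of Cpa3, 0.857 with no limit on collagen, 0.702 without the first marker cells, 0.652 without cells over 20000 UMIs, 0.744 without the 47, 0.569 with equal weight for libraries, 0.686 thinned, 0.583 over other UMIs and 0.633 scaled by the median ratio. The same settings gave 1.45, 1.44, 1.39, 1.43, 1.503, 1.53 and 1.49 for immediate-early genes (1.35), 1.32 over other UMIs and 1.43 scaled by the median ratio. For the NF-kB response (2.69) they gave, in the same order, 3.102, 3.28, 2.66, 2.88, 2.91, 3.06, 3.17, 2.63 and 2.85. Without 1 later library these ranged over 0.575 to 0.618, 1.27 to 1.42 and 2.43 to 3.07. The cycling ratio (0.839) was 0.657 with at least 5 UMIs of Cpa3, 1.33 with no limit on collagen, 0.602 without the first marker cells, 0.649 without cells over 20000 UMIs, 0.980 with equal weight and 0.76 thinned, and 0.670 to 1.68 without 1 later library. Its turn without 18 d goes with 3 cells there, and the cause of the other turn was not tested. Among 429 values of 33 named genes 423 kept their direction. Prss34 turned to 1.397 with no limit on collagen, 1.25 and 1.11 without the 2 sets of marker cells and 1.12 thinned, and Cst3 to 0.503 and 0.986 with no limit on collagen and without the 47. The share of mast cells differed by 0.657 points between 7 d and the later ages, and by 0.537 to 0.703 under the alternatives. At 28 d, 4 cells limit every value.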

Other observations

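The genes of related and neighbouring cell types were also summed in mast cells. The 10 basophil genes, led by Cyp11a1, summed to 3832 CPM at 7 d and 5808, 4305, 5647 and 6923 CPM later, and the 10 genes of type 2 innate lymphoid cells, led by Il1rl1, to 2333 CPM and 2643, 1897, 1878 and 2019 CPM. Both leading genes are also expressed by mast cells. Schwann cell genes, led by Pmp22, were at 341 CPM at 7 d and 949.5, 419, 279 and 288 CPM later. Fibroblast genes, led by Col3a1, were at 1923 CPM at 7 d and 1891, 561, 7537 and 1009.7 CPM later, with the limit on collagen in force.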
